A study of Mus musculus with 6 samples.

Results

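The genes described here are 38 components of intraflagellar transport (IFT), the primary cilium and the hedgehog pathway. They were chosen by symbol, as rows of the expression table whose annotation gives that symbol alone. Of the 38 genes, 33 were found, each with 1 probeset, among 17418 genes measured. Bbs1, Kif17, Wdr35, Arl6 and Arl13b had no probeset with their symbol alone and are not analysed here.

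Mammary epithelial cells (MECs) were taken from p53 null outgrowths. These had been grown by placing ductal fragments of 8-week-old p53-null Balb/c females into cleared fat pads of p53 wild-type Balb/c hosts. The fat pads had been cleared at 3 weeks of host age. In the tamoxifen group the hosts were exposed for 13 weeks to tamoxifen, which blocks or activates the estrogen receptor depending on the tissue, from an implanted 5 mg pellet. The control group carried a sham pellet. By the study's text, cells of both groups were collected 4 weeks after withdrawal. All mice of both groups received 100 ug of 17β-estradiol (E2) 8 h before collection, so that the 2 groups shared the p53-null epithelium, the wild-type host stroma and the E2 dose. The labels give a host age of 8 weeks at implantation, whereas the methods of the study give a later age. Each of the 3 tamoxifen and 3 control samples is RNA pooled from several mice, 5 by the series' design and 3 to 5 by the sample labels, on its own Affymetrix mouse array. Spread between pools is therefore smaller than spread between mice. Trp53 itself was not analysed here.

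The primary cilium is a single antenna-like projection on most resting cells, built on a basal body and lacking the central microtubule pair of motile cilia. IFT trains carry cargo along it: kinesin-2 moves IFT-B complexes to the tip, IFT-A complexes serve the return and the entry of membrane proteins, and the BBSome, an octamer of Bardet-Biedl syndrome proteins, carries receptors out. Vertebrate hedgehog signaling runs through this organelle. Without ligand, the receptor Ptch1 holds the transducer Smo out of the cilium and Gli2 and Gli3 are processed towards repressors, and with ligand Smo enters and the Gli factors become activators, of which Gli1 and Ptch1 are the best known targets. In the mammary gland, hedgehog ligands and receptors are spread over epithelium and stroma, and ciliated cells are found in both.

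Values are probeset intensities on a linear scale, which cannot be compared as levels between genes. Each gene was tested on log2 intensity with limma, which steadies the variance of each probeset with that of all others. Benjamini-Hochberg adjustment covered all 22369 probesets, and a gene is called at an adjusted p under 0.05. With 3 pools a side, an exact permutation test of 1 gene cannot give a p under 0.1. Mean intensity per array was 395.1 to 403.4 in the tamoxifen pools and 396.3 to 400.1 in the control pools, and pairs of arrays correlated at 0.989 to 0.992 within the tamoxifen group, 0.991 to 0.994 within the control group and 0.983 to 0.991 between groups. Krt18, a luminal keratin, was at 9843 to 10687 in tamoxifen and 10199 to 10760 in control pools, and Krt14, a basal keratin, at 1749 to 1947 in tamoxifen and 1964 to 2219 in control pools. Dcn, a fibroblast proteoglycan gene, was at 11339 to 12310 in tamoxifen and 10850 to 11981 in control pools. In such bulk samples fewer cells of a type and less RNA per cell cannot be told apart. Control pool 1 stood apart on 11 measured proliferation genes, at 1.03 above their mean over all pools on the log2 scale, beside -0.35, -0.22 and -0.66 in the tamoxifen pools and 0.19 and 0.01 in the other control pools. Tamoxifen pool 2 stood apart on 5 leukocyte genes, at 0.84, beside -0.19 and -0.43 in the other tamoxifen pools and -0.25 to 0.08 in the control pools. The mean relative log2 intensity of the 33 members was -0.02, -0.01 and 0.08 in tamoxifen pools and 0.02, -0.04 and -0.03 in control pools.

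Each of the 33 measured cilium and hedgehog members differed between tamoxifen exposed and control MECs by an FC below 1.4. The members with the smallest p-values were Ptch1 and Gli1. Limma called 0 of the 33 members, as did the methods' t-test. Over all genes limma called 0.408%, a share so small that 0 of 33 does not set the members apart. At an unadjusted p under 0.05, limma gave 4 members higher in tamoxifen pools (12.1%, against 6.91% of all genes) and 2 lower (6.06%, against 6.3%). The methods' t-test gave 3 higher and 2 lower. The median log2 fold change of the members was -0.01, beside -0.02 over all genes, with 15 members above and 18 below 0. The members ran from -0.27 in Ift46 to 0.36 in Gli1, and 0 of 33 had an FC above 1.4 in either direction, where 3.94% of all genes did. The 95% confidence interval of the difference lay within an FC of 1.4 for 30 of the 33 members (90.9%), against 72.7% of all genes. The exceptions were Gli1, Bbs4 and Bbs7. The groups of pools did not overlap in 6 members that were higher (18.2%, against 10.5% of all genes), namely Gli1, Ptch1, Bbs4, Ift57, Ift74 and Ift80, and in 2 that were lower (6.06%, against 12.4%), namely Gli3 and Ift46.

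**Figure D1:**
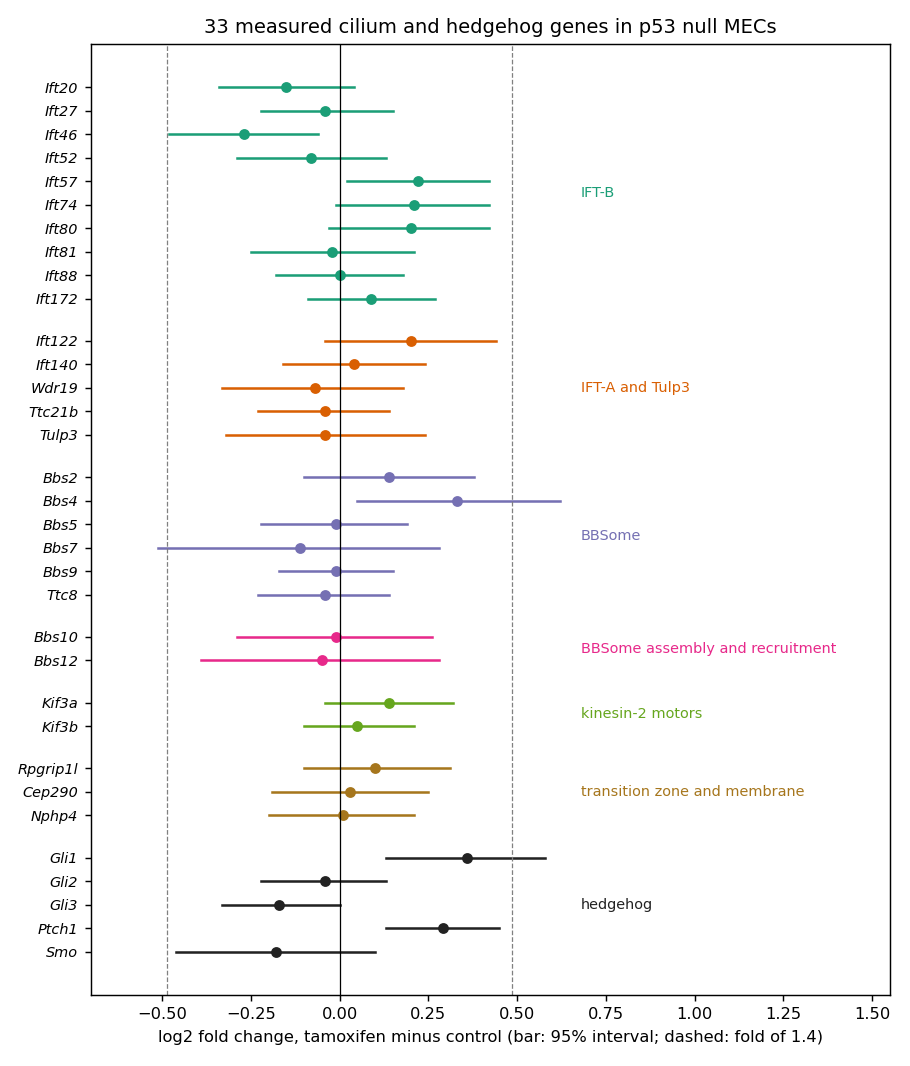
Log2 fold change (tamoxifen minus control) of the 33 measured members on the horizontal axis, by role, with 95% confidence intervals from limma as bars and an FC of 1.4 as dashed lines. Points lie between -0.27 and 0.36, and the intervals of Gli1, Bbs4 and Bbs7 pass a dashed line.

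Among the hedgehog genes, Ptch1 and Gli1, both transcribed in response to the pathway, were higher in every tamoxifen pool than in every control pool, while Gli3 was lower. That is 2 of 5 higher without overlap (40%, against 10.5% of all genes) and 1 of 5 lower (20%, against 12.4%). Ptch1, the hedgehog receptor and a brake on Smo, had intensities of 438, 435 and 449 in tamoxifen pools, against 357, 350 and 376 in control pools. The tamoxifen pools lay close together and all above the highest control pool. The FC was 1.22 (log2 0.29, SE 0.07, 95% interval 0.13 to 0.45), and the adjusted p of 0.172 from limma, the smallest among the members, did not pass (unadjusted p = 0.00397).
Gli1, the Gli factor that acts only as an activator, had 192, 168 and 195 in tamoxifen pools, against 134, 146 and 153 in control pools. Tamoxifen pool 2 was the lowest of its group and still above all controls. The FC was 1.28 (log2 0.36, SE 0.09, 95% interval 0.13 to 0.58), with an adjusted p of 0.222 and an unadjusted p of 0.00746 from limma. The unadjusted p of Gli1 and of Ptch1 was under 0.05 in 18 of 18 alternative settings each, with ranges of 0.00102 to 0.03 for Gli1 and 0.00101 to 0.021 for Ptch1. The settings refit the same arrays, and these were the 2 members with the smallest p, so this count is no independent support. Both passed the adjusted threshold only with array weights (adjusted p = 0.0467 for Gli1 and 0.0496 for Ptch1), within ranges over all alternatives of up to 0.512 and 0.472.
Gli3, which is the main repressor form of the pathway once processed, had 406, 417 and 425 in tamoxifen pools, against 489, 461 and 450 in control pools. The log2 fold change was -0.17 (SE 0.07, adjusted p = 0.4 from limma), and the unadjusted p of 0.0473 was above 0.05 in 9 of 18 alternatives, among them each fit with 1 pool left out. Gli2, the main activator, had means of 168 ± 8.2 in tamoxifen and 173 ± 5.85 in control pools (SD, n = 3 pools each), a log2 fold change of -0.04. Smo, the transducer that Ptch1 restrains, had 720, 627 and 724 in tamoxifen pools, against 903, 713 and 742 in control pools, a log2 fold change of -0.18 whose interval ran from -0.46 to 0.10. The highest value of Smo was that of control pool 1 and the groups overlapped.

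Further genes of the pathway lay on either side of control. Limma called 0 of 16 measured hedgehog genes on a further list (against 0.408% of all genes), whose median log2 fold change was -0.01. The unadjusted p from limma was under 0.05 for 3 higher genes (18.8%, against 6.91% of all genes) and 1 lower (6.25%, against 6.3%). Hhip, a decoy receptor and a further transcriptional target of the pathway, had 119, 104 and 103 in tamoxifen pools, against 78.7, 90.7 and 94.2 in control pools (log2 0.31, SE 0.10, adjusted p = 0.317 from limma). Dhh, the hedgehog ligand of Schwann cells and the testis, had 177, 151 and 168 in tamoxifen pools, against 111, 133 and 142 in control pools (log2 0.37, SE 0.12, adjusted p = 0.301). Neither overlapped between the groups, and the control values of both were lowest in pool 1. The unadjusted p from limma was 0.0212 for Hhip and 0.0182 for Dhh. It was under 0.05 in 13 of 17 alternatives for Hhip and in 16 of 18 for Dhh.
Disp1, which releases hedgehog ligands from cells, differed by 0.21 on the log2 scale (limma, adjusted p = 0.4). The ligand gene Shh was dim in all pools, at 65.2, 45.8 and 69.2 in tamoxifen and 58.2, 57.4 and 57.5 in control pools, and its groups overlapped. Of the co-receptors that present ligand to Ptch1, Gas1 had 403, 345 and 379 in tamoxifen pools, against 652, 414 and 474 in control pools (log2 -0.43, SE 0.17, adjusted p = 0.4 from limma), Cdon differed by -0.33 (adjusted p = 0.468) and Boc by -0.01. Gas1 did not overlap between the groups, with its highest value in control pool 1, whereas Cdon and Boc did. Sufu, the cytoplasmic inhibitor of Gli factors, was lower without overlap (log2 -0.16, limma adjusted p = 0.512). Ihh and Gpr161 had no probeset with their symbol alone.

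**Figure D2:**
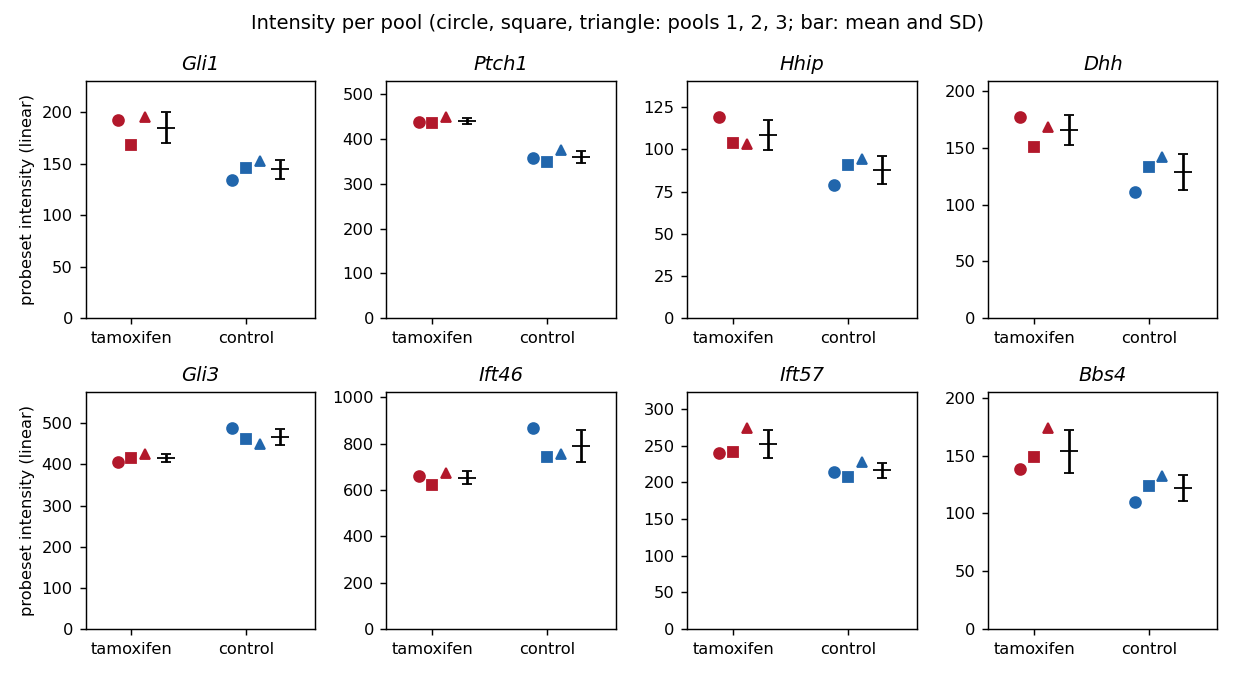
Linear probeset intensity (vertical axes from 0) of the 6 members Gli1, Ptch1, Gli3, Ift46, Ift57 and Bbs4, which had an unadjusted p under 0.05, and of the hedgehog genes Hhip and Dhh, 1 point per pool with tamoxifen on the left, and the mean with its SD beside each group. In Gli1, Ptch1, Hhip, Dhh, Ift57 and Bbs4 every tamoxifen pool was above every control pool, and in Gli3 and Ift46 every one was below.

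Marker genes of other cells and of proliferation are given beside the hedgehog genes, since several were separated between the same pools although none passed the adjusted threshold. Over all genes, 10.5% were higher and 12.4% were lower without overlap, shares to be set beside each count of markers below. All 5 endothelial markers, Pecam1, Cdh5, Kdr, Tek and Emcn, were higher in every tamoxifen pool than in every control pool, with a median log2 fold change of 0.19 and a summed intensity of 12835 to 13074 in tamoxifen and 10301 to 12061 in control pools. Of the 3 measured Schwann cell genes, which summed to 2350 to 2647 in tamoxifen and 1917 to 2090 in control pools, Mbp had a log2 fold change of 0.60 and Mal 0.52, while Sox10, the lineage factor, which basal mammary cells also express, had -0.27.
Fibroblast markers went both ways, with a median of 0.00 over 10 genes, 1 higher and 2 lower without overlap, and sums of 25878 to 27806 in tamoxifen and 25760 to 26639 in control pools. Adipocyte markers had a median of 0.33 over 6 genes, with Lep, Retn and Cidec higher without overlap and sums of 1873 to 2293 in tamoxifen and 1677 to 1852 in control pools. Luminal markers had a median of -0.10 over 9 genes, with Esr1, Elf5, Epcam and Cdh1 lower without overlap and sums of 31428 to 33321 in tamoxifen and 34050 to 34641 in control pools. Basal and myoepithelial markers had a median of -0.06 over 8 genes, with 2 higher and 2 lower without overlap. By the brightest probeset of each gene, all 11 measured proliferation genes were below control, with a median of -0.98. Of these, 9 were lower without overlap (81.8%, against 12.4% of all genes). They summed to 1751 to 2329 in tamoxifen and 2791 to 5595 in control pools, of which pool 1 was the highest. A dimmer probeset of Plk1 had a log2 fold change of 0.08 and overlapped between the groups. Limma called 0 of the 64 marker genes, against 0.408% of all genes. Its unadjusted p was under 0.05 for 8 that were higher and 11 that were lower, beside 6.91% and 6.3% of all genes. The part of any of these cells, or of proliferation, in the values of Gli1, Ptch1, Hhip or Dhh was not tested.

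**Figure D3:**
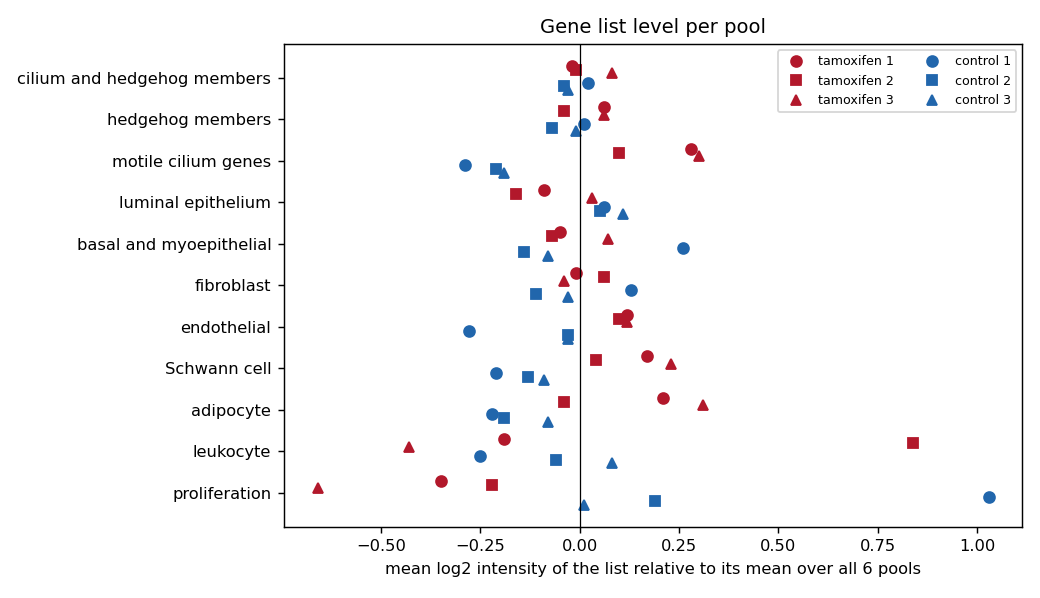
Mean log2 intensity of each gene list relative to its mean over all 6 pools (horizontal axis), 1 symbol per pool, with tamoxifen above control in each row. The members lie between -0.04 and 0.08, while control pool 1 is at 1.03 on the proliferation list and tamoxifen pool 2 at 0.84 on the leukocyte list.

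Within the IFT-B complex, which drives transport towards the ciliary tip, 3 of 10 subunits were higher without overlap between the groups, against 10.5% of all genes, and 1 of 10 was lower, against 12.4%. Ift46, a subunit of the IFT-B core, had 661, 622 and 675 in tamoxifen pools, against 868, 742 and 757 in control pools. Control pool 1 was the highest, and the 3 tamoxifen pools were all below the lowest control. The log2 fold change was -0.27 (SE 0.09, 95% interval -0.48 to -0.06, adjusted p = 0.305 from limma), and -0.20 without control 1.
Ift57, which sits at the periphery of IFT-B, had 240, 241 and 274 in tamoxifen pools, against 214, 207 and 227 in control pools (log2 0.22, SE 0.08, adjusted p = 0.373 from limma). Its unadjusted p of 0.0378 was 0.127 without tamoxifen 3, 0.119 without control 2 and 0.0772 without control 1. Ift74, a tubulin-binding core subunit with Ift81, had 91.5, 96.7 and 107 in tamoxifen pools, against 90.9, 81.2 and 83.4 in control pools (log2 0.21, adjusted p = 0.419). The lowest tamoxifen pool barely exceeded the highest control pool.
Ift80, whose loss impairs hedgehog signaling in mouse cartilage, had 144, 176 and 168 in tamoxifen pools, against 144, 142 and 139 in control pools (log2 0.20, adjusted p = 0.458 from limma). The nearest pools of Ift80 print as the same intensity after rounding, so its groups were barely apart. The other IFT-B members overlapped between the groups. Their log2 fold changes were -0.15 in Ift20, which also works at the Golgi, -0.08 in Ift52, -0.04 in Ift27, -0.02 in Ift81, 0.00 in Ift88, the subunit of the classic mouse cilium mutant, and 0.09 in Ift172. Ift88 had 158, 169 and 179 in tamoxifen pools, against 167, 171 and 168 in control pools, and its interval ran from -0.18 to 0.18. The median of the 10 IFT-B genes was -0.01.

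In the other ciliary complexes the groups overlapped in every measured member other than Bbs4. In the IFT-A group, Ift122, a core subunit, was at 232, 232 and 263 in tamoxifen pools, against 234, 199 and 200 in control pools (log2 0.20, SE 0.10, adjusted p = 0.483 from limma), and control pool 1 overlapped the tamoxifen pools. Ift140 had 0.04, Ttc21b -0.04, Wdr19 -0.07 and Tulp3, the adaptor through which IFT-A brings receptors into the cilium, -0.04. The median of these 5 genes was -0.04, and 0.08 without control 1.
Bbs4, a BBSome subunit that also binds the centriolar satellite protein Pcm1, had 138, 149 and 174 in tamoxifen pools, against 110, 124 and 132 in control pools. The groups did not overlap, although the lowest tamoxifen and the highest control pool lay close together. The FC was 1.26 (log2 0.33, SE 0.12, 95% interval 0.05 to 0.62), with an adjusted p of 0.335 and an unadjusted p of 0.0266 from limma, which was 0.0566 by the methods' t-test. Without tamoxifen 3 the unadjusted p was 0.0806, without control 1 it was 0.0797 and without control 2 it was 0.0556.
The other BBSome genes overlapped between the groups, with log2 fold changes of 0.14 in Bbs2, -0.01 in Bbs5, -0.01 in Bbs9, -0.04 in Ttc8 and -0.11 in Bbs7. The interval of Bbs7 was the widest among the members, -0.51 to 0.28, as control pool 1 was at 151 and the other control pools at 109 and 97.4. Bbs10 and Bbs12, chaperonin-like proteins that help assemble the BBSome, had -0.01 and -0.05. Kif3a and Kif3b, the paired motor subunits of kinesin-2, had 0.14 (SE 0.08) and 0.05 (SE 0.06), and their tamoxifen pools were at 183, 196 and 196 for Kif3a, against 171, 166 and 186 in control pools. The transition zone, the gate at the ciliary base, was represented by Rpgrip1l with 0.10, Cep290 with 0.03 and Nphp4 with 0.01. All 3 of their intervals lay within an FC of 1.4.

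No listed gene of the same compartments outside the 38 was called by limma, beside 0.408% of all genes, so few calls would be looked for in lists of this size. Of 14 measured further IFT, BBS and dynein-2 genes 0 were called, and the median was 0.02. Ttc26, an IFT-B subunit also known as Ift56, had 135, 134 and 143 in tamoxifen pools, against 109, 108 and 112 in control pools, an FC of 1.25 (log2 0.32, SE 0.06, adjusted p = 0.137 from limma) that was called only with array weights (adjusted p = 0.0317). By the brightest probeset of each gene, Ttc26 was the only gene of that list whose groups did not overlap. This is 7.14% higher and 0 lower, against 10.5% and 12.4% of all genes. Of the 6 probesets of Wdr60, also on that list, the brightest overlapped. A dimmer one was higher without overlap (log2 0.28, adjusted p = 0.25 from limma).
Of 18 measured further transition zone genes 0 were called, with a median of 0.07, and Tmem237 had the largest difference (log2 0.40, adjusted p = 0.228 from limma). Without overlap, 2 transition zone genes were higher (11.1%, against 10.5% of all genes) and 0 lower (against 12.4%). Of 24 measured basal body and ciliary membrane genes 0 were called, with a median of 0.05. Of these, 5 were higher (20.8%) and 3 lower (12.5%) without overlap, beside the same shares of all genes. Rab3ip, also known as Rabin8, which activates Rab8 at the base of the forming cilium, had 387, 413 and 415 in tamoxifen pools, against 498, 512 and 497 in control pools (log2 -0.31, SE 0.07, adjusted p = 0.146). Pkd1, a large ciliary membrane protein gene, had 0.28 (adjusted p = 0.27), Cdk20, a kinase that acts on cilia and hedgehog output, -0.31 (adjusted p = 0.305) and Mchr1, a ciliary receptor gene, -0.47 (adjusted p = 0.312).

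Motile cilia, found on multiciliated cells, are built by the same IFT machinery and add axonemal motors and spokes of their own. Of 22 measured genes of a motile cilium list, Fam183b, Rsph4a and Dnali1 rose and 0 fell (3 of 22, against 0.304% of all genes called higher). The unadjusted p from limma was under 0.05 for 14 higher (63.6%, against 6.91% of all genes) and 0 lower genes (against 6.3%). The methods' t-test called 0 of them, and its unadjusted p was under 0.05 for 12 higher and 0 lower genes. Their median log2 fold change was 0.39, against -0.01 in the 33 members, and this difference between the lists was not tested. The list was chosen with earlier results of these data known, and some of its genes had been seen to rise.
Rsph4a, a radial spoke head gene, had 100, 95.6 and 114 in tamoxifen pools, against 29, 39.2 and 44.3 in control pools (log2 1.48, SE 0.17, adjusted p = 0.0343 from limma). Dnali1, an inner dynein arm light chain gene, had 86.4, 78.7 and 82.6 in tamoxifen pools, against 53.8, 43.3 and 47.3 in control pools (log2 0.78, adjusted p = 0.0451), and Fam183b differed by 1.96 on the log2 scale (adjusted p = 0.00609). With any 1 pool left out, 1 motile cilium gene passed. These 3 genes were dim, and the size of their differences depended on the low end of the scale. With an offset of 32 added to each intensity, the log2 fold changes were 1.38 in Fam183b, 0.96 in Rsph4a and 0.52 in Dnali1.
Of the transcription factors, Foxj1, the master regulator of motile ciliogenesis, had 342, 304 and 417 in tamoxifen pools, against 230, 266 and 295 in control pools (log2 0.42, SE 0.15, adjusted p = 0.336 from limma). Rfx2 had 0.34 (adjusted p = 0.316) and Rfx3, which serves primary and motile cilia, 0.15 (adjusted p = 0.601). The 11 measured regulators had a median of 0.08 and 0 were called (against 0.408% of all genes).

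**Figure D4:**
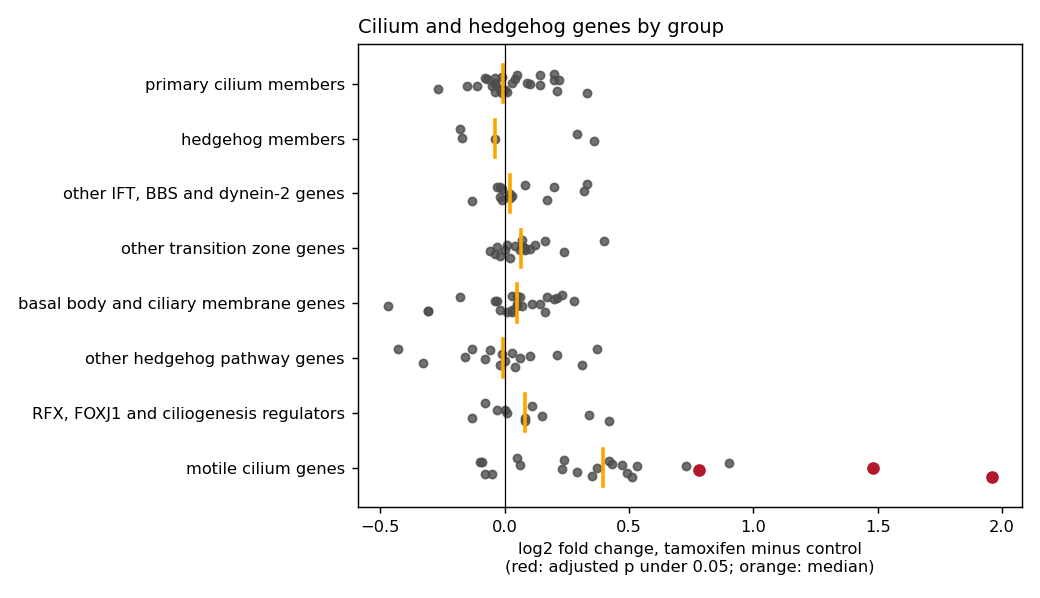
Log2 fold change (tamoxifen minus control) of each gene by list, 1 point per gene, with the list's median in orange and genes past an adjusted p of 0.05 by limma in red. The members and their compartments lie around 0, and the motile cilium genes have a median of 0.39 and the 3 red points.

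Many cilium genes are controlled by RFX factors, which bind the X-box, a core repeated in inverted orientation. To show what the promoters of the members share beyond their function, the RefSeq windows (build GRCm38.p6, 250 bases before to 50 after the start) were searched on both strands. Of the 38 members 34 had a window. The X-box core GTTGCC was found in 13 of the 34 (38.2%), against 14.1% of all genes with a window. All 13 were cilium genes, and 0 of the 4 hedgehog windows held it. The full X-box was searched as GTTNCC, any 2 bases and GGNAAC, which can contain the core. With that spacing it was found in Bbs7 alone among the members (2.94%, against 0.529% of all genes). On the other lists it was found in Ttc26, Ttc30a2, Tctn1, Mks1, Ahi1 and Rab3ip. Other spacings were not searched, and in the Ift57 window the core nearer the start is followed by T and GGTAAC. The GLI motif TGGGTGGTC was found in 0 of the 34 windows, and in 0.289% of all genes, which says only that these letters are not in these windows. The GC box GGGCGG was found in 25 of the 34 members (73.5%), against 38.2% of all genes.
Windows are shown for Ift57, with 2 cores in capitals, for Bbs7 and Ttc26, with the full X-box as searched in capitals, and for Ptch1, the member with the smallest p, with its GC box in capitals. They lie at chr16:49699044-49699343 on the plus strand (Ift57), chr3:36613340-36613639 on the minus strand (Bbs7), chr6:38381274-38381573 on the plus strand (Ttc26) and chr13:63565686-63565985 on the minus strand (Ptch1), and each holds the upstream sequence and the first transcribed bases of its gene.
Ift57: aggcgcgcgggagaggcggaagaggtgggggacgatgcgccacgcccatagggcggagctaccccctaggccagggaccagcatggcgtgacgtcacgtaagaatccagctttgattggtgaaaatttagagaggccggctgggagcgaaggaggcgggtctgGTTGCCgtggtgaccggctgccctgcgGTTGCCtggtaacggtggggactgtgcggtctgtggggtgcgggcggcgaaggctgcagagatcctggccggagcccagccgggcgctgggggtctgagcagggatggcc
Bbs7: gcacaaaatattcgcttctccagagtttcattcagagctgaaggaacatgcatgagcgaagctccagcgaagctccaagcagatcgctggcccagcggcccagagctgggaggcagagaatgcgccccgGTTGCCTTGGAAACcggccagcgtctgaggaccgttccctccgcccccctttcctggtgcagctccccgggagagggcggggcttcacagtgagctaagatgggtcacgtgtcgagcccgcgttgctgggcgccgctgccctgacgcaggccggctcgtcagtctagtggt
Ttc26: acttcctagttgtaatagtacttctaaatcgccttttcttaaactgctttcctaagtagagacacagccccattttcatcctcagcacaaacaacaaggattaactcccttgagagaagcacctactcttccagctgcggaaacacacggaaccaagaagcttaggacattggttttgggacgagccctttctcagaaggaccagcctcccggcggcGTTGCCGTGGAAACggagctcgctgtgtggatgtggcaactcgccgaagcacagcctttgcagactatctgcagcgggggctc
Ptch1: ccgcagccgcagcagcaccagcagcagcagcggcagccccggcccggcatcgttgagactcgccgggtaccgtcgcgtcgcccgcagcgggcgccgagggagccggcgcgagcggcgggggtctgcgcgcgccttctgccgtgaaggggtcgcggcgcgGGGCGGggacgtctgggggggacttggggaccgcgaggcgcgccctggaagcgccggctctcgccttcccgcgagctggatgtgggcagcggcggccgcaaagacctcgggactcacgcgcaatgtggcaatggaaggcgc
Ift57 and Ttc26 were higher in all tamoxifen pools. Bbs7, like Ttc26 with the full X-box as searched, overlapped between the groups at 108, 103 and 113 in tamoxifen pools and 151, 109 and 97.4 in control pools. Of the other genes with the full X-box, Ahi1 was higher (log2 0.16) and Rab3ip lower (log2 -0.31) in all tamoxifen pools. Tctn1 (log2 -0.04) and Mks1 (log2 0.00) overlapped, and Ttc30a2 had no probeset with its symbol alone. Ptch1, with no core in its window, was higher in all tamoxifen pools. Among the 9 measured members with the core the median log2 fold change was 0.01, with 1 higher and 0 lower without overlap (10.5% and 12.4% of all genes). Among the 20 measured members whose window lacked it the median was -0.04, with 3 higher and 2 lower without overlap, beside the same shares of all genes. The 2 groups of members were not tested against each other.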

How the data were processed

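The deposited values are linear probeset intensities, for 22369 probesets on each of 6 arrays. MAS5 and mm9 are named in the submitters' processing notes, which state no role for them, and how background was corrected and arrays were scaled is not given in the sources used here. Array type differs between the labels (Mouse Exon) and the study's methods (Mouse Gene). The annotation gave 1 symbol to 18286 probesets, several to 1276 and none to 2807. A gene is represented by its brightest probeset over all arrays, which for each measured member is its only one.

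The log2 of each intensity, unfiltered and without offset, was fitted over all probesets with limma (3.58.1, R 4.3.3, lmFit and eBayes, group as the only term, 4 residual and 2.35 prior degrees of freedom). P-values are two-sided. The methods' t-test is an equal-variance test on the same values. The number of arrays limits the precision. On simulated arrays with 200 of 22369 probesets changed, 73 of 100 simulated log2 differences of 1 and 94 of 100 of size 2 were called by limma, as were 10 unchanged probesets. Smaller changes, such as those of the members, were not simulated. Plots and motif searches used Python 3.11.15.

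The members, lists and tests were chosen with earlier results of these data known. All members are named. Those with an unadjusted p under 0.05 or groups that do not overlap are given per pool, and of the other lists the genes with the smallest p, with Shh, Cdon, Boc, Sufu, Rfx3 and Ift88 and other members given per pool added after their values were seen. The titles' replicate numbers were not taken as pairs.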

Additional observations from a re-analysis of the deposited data

How the results depend on the processing

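With arrays weighted by their quality, 2 members (Gli1 and Ptch1) were called, 7 members were higher at an unadjusted p under 0.05, their median log2 fold change was 0.04, 12 genes of the pathway lists were called and 3 marker genes. Of the 14 genes recomputed, none changed sign under the alternatives run, which numbered 18 for 8 genes and 17 for Ift74, Hhip, Ttc26, Fam183b, Rsph4a and Dnali1, which were too dim for the filter at the median. The pathway list calls, 3 in the fit as reported, were 0 by the methods' t-test and 1 with any single pool left out (lowest 1, highest 1). They were also 1 when dimmer probesets, those under the median, were left out. That filter removed all 3 genes called in the fit as reported, so this call was another gene. With single pools left out, 2 to 6 members were higher and 0 to 1 lower at an unadjusted p under 0.05. Of these, 2 were higher without tamoxifen 3 and 2 without control 2, and 0 were lower without tamoxifen 2. With each array centred on its median 1 member was lower. With both control 1 and tamoxifen 2 left out, chosen after seeing the data, 0 members were lower and 0 pathway genes were called. Apart from the genes removed by the filter at the median, the cause of these moves was not tested.

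Same-numbered pools did not deviate together (correlations of 0.054, 0.007 and -0.042), so the numbers were not used as pairs. With the replicate block, 0 genes of the pathway lists were called and 1 member was lower at an unadjusted p under 0.05, and 15 of 22369 probesets were called in place of 87.

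The median of all probesets was -0.02 as reported and between -0.04 and 0.01 under the alternatives. An offset of 32 left 0 members called.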
